A study of Mus musculus with 20 samples.

Results

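The chemokines that draw monocytes into tissue, and the receptors that read them, were followed through 9 genes of the kidney RNA table, taken by symbol out of 13842 genes. Of these, 6 encode ligands (*Ccl2*, *Ccl7*, *Ccl8*, *Ccl12*, *Ccl5* and *Cx3cl1*) and 3 encode receptors (*Ccr1*, *Ccr2* and *Cx3cr1*). All 9 were measured. The filter on low values, a mean of at least 0.5 FPKM in a group, removed 0 genes of the table and so none of them. *Ccl7*, *Ccl8* and *Ccr1* met it only in UUO groups. RNA came from the whole left kidney of 20 male mice, 5 in each of 4 groups, taken 7 days after surgery. KDM6A Ctrl mice had the genotype Pax8Cre+, and KDM6A TubKO mice carried Kdm6a fl/Y together with Pax8Cre+, so that the controls also expressed the Cre recombinase. Pax8 drives Cre along the kidney tubule, whereas the receptors studied here are best known on leukocytes. In unilateral ureteral obstruction (UUO) the left ureter was tied, and sham mice had the same operation without the tie. Ages were matched between genotypes, but the age of these mice is not given in the sources used here.

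Chemokines are small secreted proteins that bind G protein-coupled receptors on leukocytes and direct their migration. CCL2, CCL7 and CCL12 bind CCR2, which classical monocytes need to leave the bone marrow and enter inflamed tissue, and in mice CCL8 is best known as a ligand of CCR8. CCL5 binds CCR1 and other receptors on monocytes and T cells. CX3CL1, also called fractalkine, is made as a membrane-bound protein of epithelium and endothelium, is cut free by proteases, and binds CX3CR1 on monocytes, macrophages and NK cells. KDM6A removes methyl groups from lysine 27 of histone H3, a mark of silenced genes.

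The targeted gene was checked first. *Kdm6a* lay between 1.76 and 2.33 FPKM in KDM6A Ctrl sham kidneys and between 0.862 and 1.61 FPKM in KDM6A TubKO sham kidneys, which did not overlap. After UUO it lay between 2.28 and 3.67 FPKM in KDM6A Ctrl kidneys and between 2.03 and 4.21 FPKM in KDM6A TubKO kidneys, so the gene-level value did not separate the genotypes there. This value covers the whole gene and every cell of the kidney, so the genotype labels of the UUO kidneys could not be checked with it. FPKM, the deposited unit, divide fragments by gene length and by library size and hold no counts, so the depth of each library is unknown. Summed over all genes, FPKM ranged from 298467 to 387375 per kidney. Markers of kidney tissue (8 genes, among them *Lrp2* and *Umod*) summed to between 599 and 1679 FPKM. With UUO, 3 of the 8 fell and 2 rose in KDM6A Ctrl kidneys (15.1% of all genes fell and 56.7% rose). In KDM6A TubKO kidneys 4 fell and 1 rose (16.7% of all genes fell and 57.9% rose). The library of KDM6A Ctrl sham mouse 3 stood apart, with 55.1 FPKM of the tubule injury gene *Havcr1* against 0.290 to 1.37 FPKM in the other 4 mice of its group. The main values without this library are given beside the comparisons that use sham kidneys.

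On GRCm38 (coordinates from the annotation of that build), 5 of the ligands lie on chromosome 11. *Ccl2* lies at chr11:82035571-82037453, *Ccl7* at chr11:82045712-82047525, *Ccl12* at chr11:82101845-82103400 and *Ccl8* at chr11:82115185-82116799, all on the plus strand. *Ccl5* lies at chr11:83525778-83530518 on the minus strand. *Cx3cl1* lies at chr8:94772009-94782427 on the plus strand. The receptors share chromosome 9, with *Cx3cr1* at chr9:119901616-120069879 and *Ccr1* at chr9:123962124-123968692 on the minus strand and *Ccr2* at chr9:124101950-124113557 on the plus strand. The listed span of *Cx3cr1* holds other genes on its own strand (*Gorasp1*, *Csrnp1* and *Xirp1*), and *Ccl2* overlaps *Gm17268* on the opposite strand. The CC ligands of chromosome 11 are similar in sequence, as are CC receptors of chromosome 9, and how reads were shared between such copies was not tested.

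RefSeq promoters (GRCm38.p6, from 250 bases before the start to 50 bases from it) were matched for 6 of the 9 genes; *Ccl2*, *Ccl7* and *Ccl5* were not matched. Those of *Ccl12* and *Ccl8* are shown because these neighbouring ligands had the same direction in each comparison, and those of *Ccr2* and *Cx3cr1* because these receptors were the members that differed between genotypes. Capitals mark the TATA box (TATAAA) and the PU.1 core (GAGGAA), each sought on both strands. PU.1 is a transcription factor of myeloid cells.
*Ccl12*: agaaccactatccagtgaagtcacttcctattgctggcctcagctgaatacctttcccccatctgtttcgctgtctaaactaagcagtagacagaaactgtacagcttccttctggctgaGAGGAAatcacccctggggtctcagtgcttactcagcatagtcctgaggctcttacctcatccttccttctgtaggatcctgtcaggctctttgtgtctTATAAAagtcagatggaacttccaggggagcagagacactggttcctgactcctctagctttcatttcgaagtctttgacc
*Ccl8*: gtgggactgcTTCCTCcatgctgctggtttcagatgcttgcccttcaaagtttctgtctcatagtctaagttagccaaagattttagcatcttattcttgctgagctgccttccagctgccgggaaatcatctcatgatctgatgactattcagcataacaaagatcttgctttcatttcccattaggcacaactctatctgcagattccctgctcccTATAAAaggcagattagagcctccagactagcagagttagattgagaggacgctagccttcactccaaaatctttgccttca
*Ccr2*: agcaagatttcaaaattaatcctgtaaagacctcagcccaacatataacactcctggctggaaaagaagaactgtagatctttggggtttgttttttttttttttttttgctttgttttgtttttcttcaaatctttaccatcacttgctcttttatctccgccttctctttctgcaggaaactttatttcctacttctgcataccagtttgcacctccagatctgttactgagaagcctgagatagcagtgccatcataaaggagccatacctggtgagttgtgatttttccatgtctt
*Cx3cr1*: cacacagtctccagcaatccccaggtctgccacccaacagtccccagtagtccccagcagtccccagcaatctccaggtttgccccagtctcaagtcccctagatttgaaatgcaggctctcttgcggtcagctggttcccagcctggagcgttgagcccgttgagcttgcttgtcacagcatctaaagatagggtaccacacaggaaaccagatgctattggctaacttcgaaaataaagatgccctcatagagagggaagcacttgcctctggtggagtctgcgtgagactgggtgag
These regions are chr11:82101595-82101894 (plus strand) for *Ccl12*, chr11:82114935-82115234 (plus) for *Ccl8*, chr9:124101933-124102232 (plus) for *Ccr2* and chr9:120068247-120068546 (minus) for *Cx3cr1*. The RefSeq start of *Ccr2* lies 233 bases inside the gene as listed, and that of *Cx3cr1* lies 1583 bases inside. A TATA box began at -31 in *Ccl12* and at -32 in *Ccl8*, and 13.6% of the 32851 promoters of the table held these letters anywhere in the window on either strand. The PU.1 core began at -130 in *Ccl12* and, on the opposite strand, at -240 in *Ccl8*, and 28.3% of all promoters held it anywhere in the window. Neither motif was found in the windows of *Ccr2* and *Cx3cr1*. AP-1 (TGANTCA, in 7.81% of all promoters) was found in none of the 6 windows, and the NF-kB consensus (8.46%) in that of *Ccr1*.

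All 9 genes rose with obstruction in KDM6A Ctrl kidneys. On the log2(FPKM + 1) scale the median log2 fold change was 3.69 over the 6 ligands and 2.53 over the 3 receptors, beside 0.35 over all genes. In limma, 9 of 9 members were higher at an adjusted p under 0.05 (Benjamini-Hochberg over all genes), as were 56.7% of all genes. UUO and sham kidneys did not overlap for any of the 9, beside 45.8% of all genes that were higher without overlap. Since *Ccl7*, *Ccl8* and *Ccr1* met the filter only through UUO groups, their presence among the genes favours such a rise in either genotype. *Ccl2* and *Ccl12* met it in 1 sham group, KDM6A Ctrl (means 0.753 and 0.723 FPKM), through mouse 3 (3.46 and 2.96 FPKM). The other mice of that group had at most 0.238 and 0.404 FPKM, so the same limit bears on these genes.

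*Ccl2*, the leading monocyte chemokine, was listed at 0, 0.0730, 3.46, 0 and 0.238 FPKM in KDM6A Ctrl sham mice 1 to 5. After UUO the values were 65.6, 79.6, 33.9, 20.1 and 25.4 FPKM. Sham mouse 3 was the highest of its group and still below each obstructed kidney, and the log2 fold change was 4.81 (standard error 0.37, limma adjusted p = 1.54e-09). *Ccl7*, which shares CCR2 with it, lay between 0 and 1.92 FPKM in sham kidneys and between 14.8 and 46.5 FPKM after UUO (log2 fold change 4.30). *Ccl12*, a CCR2 ligand of rodents, was listed at 0, 0.404, 2.96, 0.252 and 0 FPKM in sham mice and at 34.9, 12.2, 24.1, 24.2 and 33.0 FPKM after UUO (log2 fold change 4.10, standard error 0.36, limma adjusted p = 8.22e-09). These CCR2 ligands were at or near 0 in most sham kidneys, where only mouse 3 passed 1 FPKM. *Ccl8* was listed at 0 in 4 of 5 sham kidneys and at 1.33 FPKM in mouse 3, and lay between 8.68 and 14.2 FPKM after UUO (log2 fold change 3.27). *Ccl5*, which also recruits T cells, lay between 0.352 and 1.47 FPKM in sham kidneys and between 9.92 and 29.0 FPKM after UUO (log2 fold change 3.19).

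*Cx3cl1* differed from the CC ligands in its level before injury. It was listed at 11.8, 10.6, 1.42, 13.4 and 11.2 FPKM in KDM6A Ctrl sham mice 1 to 5 and at 50.4, 28.1, 46.4, 54.3 and 60.6 FPKM after UUO. Mouse 3 was here the lowest sham kidney, opposite to its place for the CC ligands of CCR2. The log2 fold change was 2.38 (standard error 0.35, limma adjusted p = 6.49e-06), and 1.90 without that mouse.

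The receptors also rose in KDM6A Ctrl kidneys, in an order that depended on the pseudocount. *Ccr2* was listed at 0.601, 0.629, 1.38, 0.637 and 0.564 FPKM in sham mice and at 12.1, 10.1, 8.54, 16.7 and 12.6 FPKM after UUO, a log2 fold change of 2.87 (standard error 0.17, limma adjusted p = 5.79e-11). *Cx3cr1* was listed at 0.585, 0.762, 0.563, 0.926 and 0.561 FPKM in sham mice and at 5.22, 9.04, 3.25, 5.96 and 8.46 FPKM after UUO (log2 fold change 2.08). *Ccr1*, a receptor of CCL5 and CCL7, lay between 0.0862 and 0.496 FPKM in sham kidneys and between 3.72 and 8.15 FPKM after UUO (log2 fold change 2.53). At a pseudocount of 0.1 the log2 fold change was 4.39 for *Ccr1*, above the 3.85 of *Ccr2*. All 3 receptors were thus below 2 FPKM in each sham kidney and above 3 FPKM in each obstructed one. Without sham mouse 3 the log2 fold changes of the 9 genes ran from 1.90 to 5.22, and all 9 stayed called. In these bulk samples, more cells of a type and more RNA per cell cannot be told apart.

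In KDM6A TubKO mice all 9 genes also rose with obstruction (57.9% of all genes were higher at adjusted p), and 9 of 9 did so without overlap (50.1% of all genes). The median log2 fold change was 4.15 over the ligands and 2.79 over the receptors, beside 0.39 over all genes. *Ccl12* had the largest log2 fold change of the members, 5.19 (standard error 0.36, limma adjusted p = 2.63e-10), from 0, 0.188, 0, 0 and 1.43 FPKM in sham mice 1 to 5 to 46.2, 33.4, 37.6, 40.2 and 72.2 FPKM after UUO. The value was 4.48 for *Ccl7* and 4.27 for *Ccl2*, and the smallest was that of *Cx3cl1*, 2.02. Among the receptors the value was 3.53 (standard error 0.17) for *Ccr2*, 2.79 for *Cx3cr1* and 2.66 for *Ccr1*, and at a pseudocount of 0.1 that of *Ccr1* (4.94) was above that of *Ccr2* (4.38). A fit with log2 *Ptprc* as a covariate made 2 calls in the KDM6A Ctrl comparison and 0 in the other, and the Ballgown-like F-test, which adds a covariate for library size, made 0 and 1. Log2 *Ptprc* was higher in each UUO kidney than in any sham kidney, as was a near form of the library covariate that kept values of 0. These covariates and obstruction therefore cannot be told apart.

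**Figure D1:**
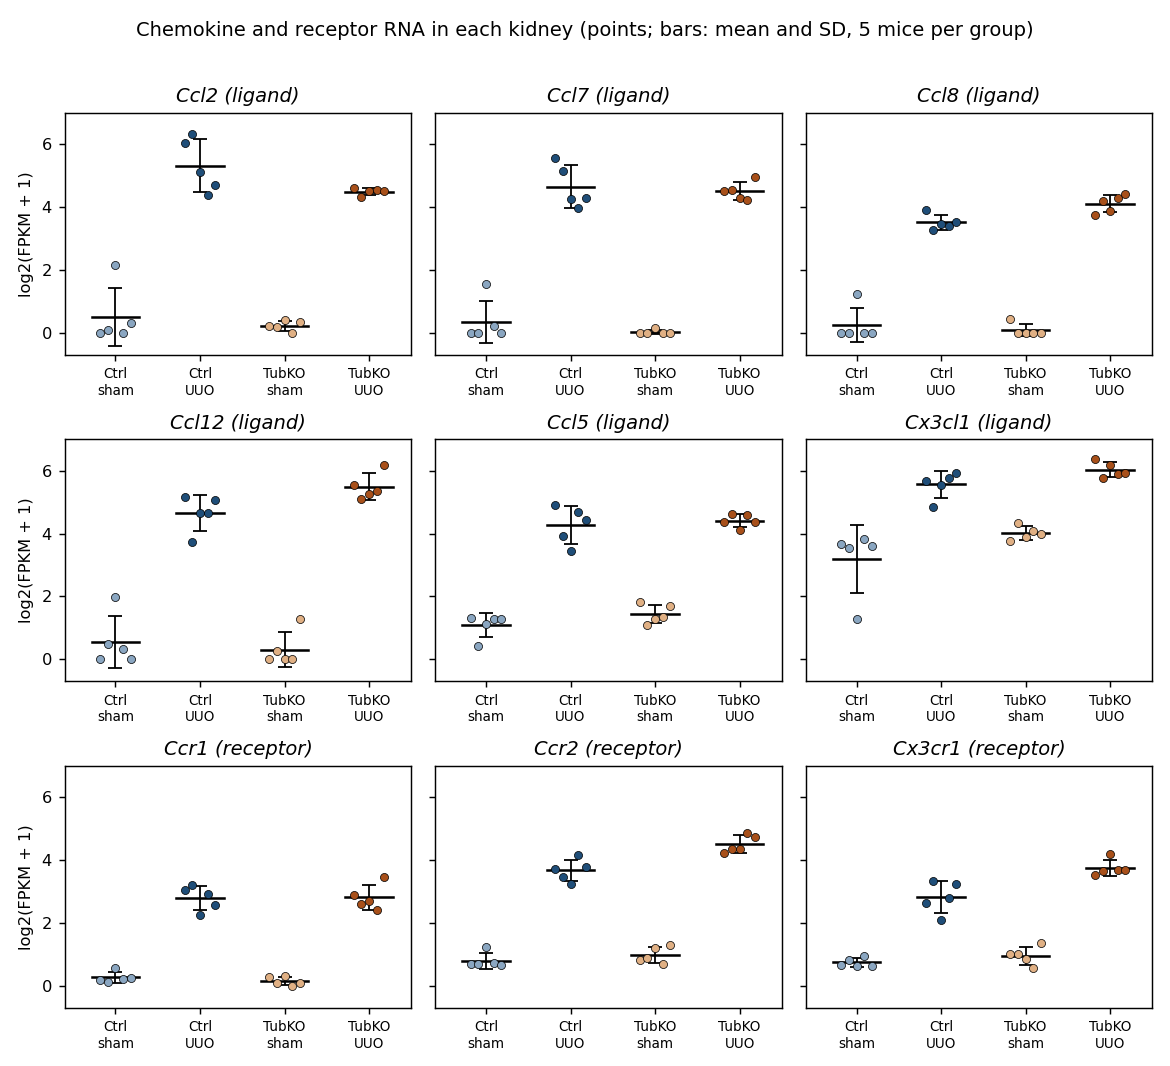
RNA level of each of the 9 genes as log2(FPKM + 1), with 1 point per kidney and bars for the mean and SD of 5 mice per group. UUO kidneys lie above sham kidneys in every panel, and in the panels of *Ccr2* and *Cx3cr1* the KDM6A TubKO UUO kidneys lie above all KDM6A Ctrl UUO kidneys.

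Between genotypes in sham kidneys, no member was called at adjusted p in limma, with 1 of 9 at an unadjusted p under 0.05, beside 21.5% of all genes, and 0 calls by the Ballgown-like F-test. That gene was *Cx3cl1*, at 12.7, 19.4, 13.9, 16.1 and 14.9 FPKM in KDM6A TubKO sham mice against the KDM6A Ctrl values above. Its log2 fold change was 0.83 (standard error 0.35, limma adjusted p = 0.170), and it was the member past the study threshold (a 1.5-fold difference or more, and p under 0.05 before adjustment), which 0.643% of all genes passed upward. Without KDM6A Ctrl sham mouse 3 the log2 fold change was 0.35 (limma adjusted p = 0.287), and *Cx3cl1* no longer passed either threshold. The same held at the study threshold without KDM6A TubKO sham mouse 2. For the other 8 genes the log2 fold changes ran from -0.33 to 0.36, and their 95% intervals all included 0. Those of *Ccl2*, *Ccl8* and *Ccl12* turned from below to above 0 without KDM6A Ctrl sham mouse 3 (to 0.13, 0.09 and 0.10). With all mice the interval of *Ccl2* ran from -1.06 to 0.49 and that of *Ccr2* from -0.18 to 0.53.

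After UUO, KDM6A TubKO kidneys had more RNA of 2 receptors, while the ligands split in direction. *Ccr2* was listed at 17.7, 19.4, 19.4, 28.3 and 25.9 FPKM in KDM6A TubKO UUO mice 1 to 5, all above the highest KDM6A Ctrl UUO kidney (16.7 FPKM). The ratio of the group means was 1.84, and the log2 fold change was 0.84 (standard error 0.17, limma adjusted p = 0.0142). *Cx3cr1* was listed at 10.5, 11.7, 17.3, 11.8 and 12.0 FPKM, all above the highest KDM6A Ctrl UUO kidney (9.04 FPKM), with a ratio of means of 1.98 and a log2 fold change of 0.93 (standard error 0.19, limma adjusted p = 0.0149). Of all genes, 2.58% were called higher and 2.34% were higher without overlap, whereas 3.07% were called lower, among them none of the members. *Ccr1* differed from the other receptors, with 4.38 to 10.0 FPKM in KDM6A TubKO kidneys beside 3.72 to 8.15 FPKM in KDM6A Ctrl kidneys and a log2 fold change of 0.02 (95% interval -0.36 to 0.39).

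The 2 calls held in all 20 fits that left out a mouse, with the highest adjusted p at 0.0403 for *Ccr2* and at 0.0327 for *Cx3cr1*. They were lost when only the compared groups were fitted (limma adjusted p = 0.0861 for *Ccr2* and 0.102 for *Cx3cr1*), in the Ballgown-like F-test (0.0888 and 0.0777) and with urothelium markers as a covariate (0.157 and 0.0864), and that of *Ccr2* also at a pseudocount of 0.1 (0.0515). Identifiers of the mice fall into a lower and a higher number series, which the labels do not explain. Within the lower and the higher series the KDM6A TubKO minus KDM6A Ctrl difference of *Ccr2* after UUO was 0.83 and 0.85 on the log2 scale, and that of *Cx3cr1* was 1.11 and 0.67.

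None of the 6 ligands was called between genotypes after UUO in limma, although 3 had an unadjusted p under 0.05, as did 24.6% of all genes (0 were called by the Ballgown-like F-test). *Ccl8*, at 14.2, 8.68, 10.0, 9.60 and 10.5 FPKM in KDM6A Ctrl and 12.6, 17.5, 13.8, 18.4 and 20.3 FPKM in KDM6A TubKO mice, had a log2 fold change of 0.59 (standard error 0.20, limma adjusted p = 0.0864). Its groups overlapped through KDM6A Ctrl mouse 1 alone. In the fit without KDM6A Ctrl sham mouse 3 *Ccl8* was called (limma adjusted p = 0.0215), with the log2 fold change unchanged at 0.59. That mouse is not part of this comparison, and *Ccl8* was called in only 1 of 31 alternatives. *Ccl12* had a log2 fold change of 0.84 (standard error 0.36, limma adjusted p = 0.158), with the lowest KDM6A TubKO kidney at 33.4 FPKM and the highest KDM6A Ctrl kidney at 34.9 FPKM.

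*Ccl2* pointed the other way, at 23.4, 18.8, 21.9, 22.5 and 21.7 FPKM in KDM6A TubKO UUO mice, a log2 fold change of -0.83 (standard error 0.37, limma adjusted p = 0.178). The KDM6A Ctrl values ranged more widely, with mice 1 and 2 at 65.6 and 79.6 FPKM and mice 4 and 5 at 20.1 and 25.4 FPKM. In the lower number series the means were 59.7 FPKM in KDM6A Ctrl and 21.4 FPKM in KDM6A TubKO mice, and in the higher series 22.7 and 22.1 FPKM. The difference of *Ccl2* was thus seen in 1 of the 2 series. *Ccl7* (log2 fold change -0.15), *Ccl5* (0.14) and *Cx3cl1* (0.47) had 95% intervals that included 0. At the study threshold *Ccl8*, *Ccl12*, *Ccr2* and *Cx3cr1* were higher (0.99% of all genes) and *Ccl2* was lower (2.26% of all genes). At that threshold *Ccl2* was lost on leaving out mouse 1 or mouse 2 of the KDM6A Ctrl UUO group or mouse 2, 3, 4 or 5 of the KDM6A TubKO UUO group, and the 4 higher genes became 2 without KDM6A Ctrl UUO mouse 2 or KDM6A TubKO UUO mouse 5.

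**Figure D2:**
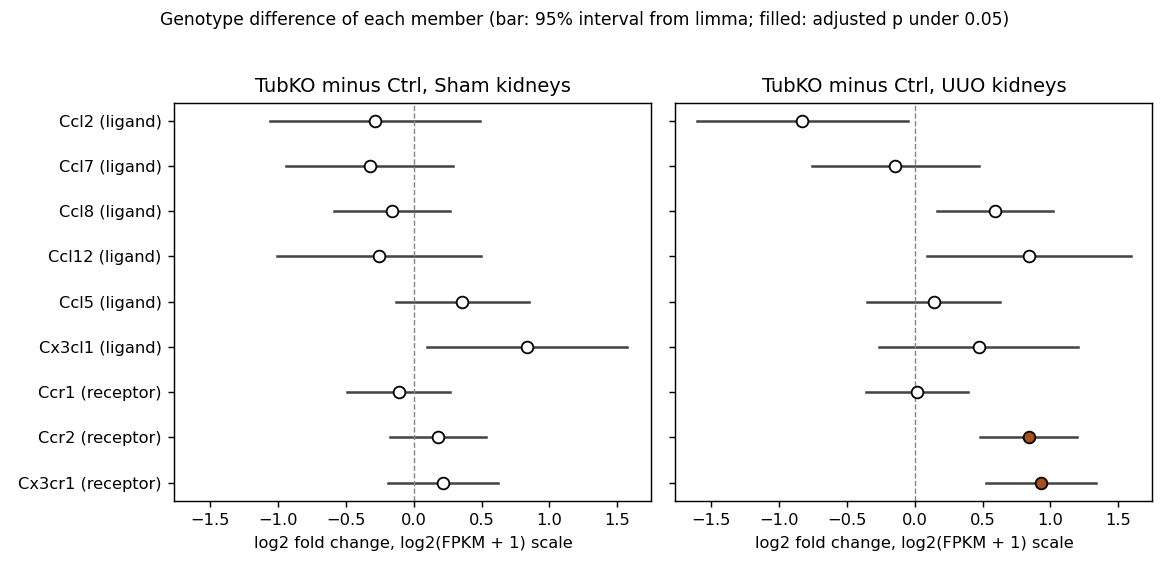
Log2 fold change of KDM6A TubKO over KDM6A Ctrl for each of the 9 genes in sham kidneys (left) and UUO kidneys (right), with 95% intervals from limma on the log2(FPKM + 1) scale and filled points at an adjusted p under 0.05. The filled points are *Ccr2* (0.84) and *Cx3cr1* (0.93) after UUO, and *Ccl2* is the member farthest below 0 (-0.83).

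Whether obstruction acted differently in the genotypes was tested by the interaction term. No member was called in limma, 4 had an unadjusted p under 0.05, and the Ballgown-like F-test called 0. Of all genes, 15.7% had an unadjusted p under 0.05 and 4 were called. The 4 members were *Ccl12* (1.10, standard error 0.51, limma adjusted p = 0.305), *Ccl8* (0.75, adjusted p = 0.223), *Cx3cr1* (0.72, adjusted p = 0.223) and *Ccr2* (0.66, adjusted p = 0.208). Without KDM6A Ctrl sham mouse 3 these terms were 0.74, 0.51, 0.74 and 0.55. That of *Ccl2* moved from -0.54 to -0.95, and those of *Ccl7* (0.18 to -0.12) and *Cx3cl1* (-0.36 to 0.12) changed sign, with none called. The genotype difference of the receptors after UUO was therefore not shown to differ from that in sham kidneys.

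Ligands and receptors were then set beside each other within each kidney. The mean log2(FPKM + 1) of the 6 ligands exceeded that of the 3 receptors by 0.32, 0.21, 0.72, 0.32 and 0.36 in KDM6A Ctrl sham mice and by 2.08, 1.21, 1.89, 1.20 and 1.48 after UUO. In KDM6A TubKO mice the excess was 0.32, 0.32, 0.18, 0.48 and 0.30 in sham kidneys and 1.33, 1.22, 0.96, 1.16 and 1.09 after UUO. Obstructed kidneys thus had a larger excess of ligand over receptor in both genotypes without overlap, and after UUO the genotypes overlapped. The group means after UUO were 1.57 ± 0.40 (SD, n = 5) in KDM6A Ctrl and 1.15 ± 0.14 (SD, n = 5) in KDM6A TubKO mice. The ligand means were 4.67 and 4.85 and the receptor means 3.10 and 3.69, a difference of 0.18 for the ligands and of 0.60 for the receptors. Without KDM6A Ctrl sham mouse 3 the mean of its group was 0.30. In sham kidneys the excess depended on the pseudocount, with a mean of 0.0191 in KDM6A Ctrl mice, and of -0.166 in the other genotype, at a pseudocount of 0.1.

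Of the single pairs, *Ccl2* over *Ccr2* had the largest difference between the genotypes' means after UUO. The log2 ratio within a kidney, from FPKM + 1, was 2.34, 2.86, 1.87, 0.25 and 0.95 in KDM6A Ctrl UUO mice and 0.38, -0.04, 0.17, -0.32 and -0.25 in KDM6A TubKO UUO mice. KDM6A Ctrl mouse 4 fell within the range of the other genotype, and the means were 1.66 ± 1.05 and -0.01 ± 0.29 (SD, n = 5). *Ccl7* over *Ccr2* had means of 0.98 and -0.00, *Ccl12* over *Ccr2* of 0.99 and 0.99, and *Ccl8* over *Ccr2* of -0.15 and -0.40. In sham kidneys the KDM6A TubKO minus KDM6A Ctrl difference was -0.46 for *Ccl2* over *Ccr2* and -0.43 for *Ccl12* over *Ccr2*. Both included KDM6A Ctrl sham mouse 3, at 0.91 and 0.74. The other mice of its group lay from -0.71 to -0.34 and from -0.68 to -0.21, and the differences without mouse 3 were not computed. *Ccl5* over *Ccr1* had means of 1.48 and 1.60, and *Cx3cl1* over *Cx3cr1* of 2.75 and 2.29. These ratios are descriptions, and no test was made of them.

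**Figure D3:**
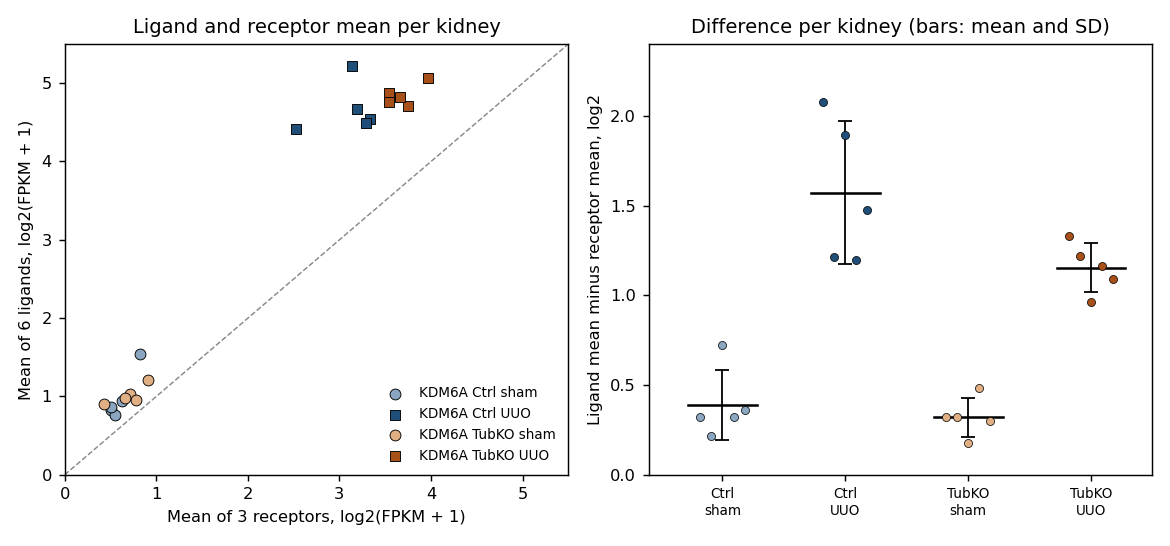
Left, mean log2(FPKM + 1) of the 6 ligands against that of the 3 receptors, 1 point per kidney, with a dashed line where they are equal; right, their difference per kidney with the mean and SD of 5 mice per group. All kidneys lie above the line, and the difference averages 1.57 in KDM6A Ctrl UUO and 1.15 in KDM6A TubKO UUO kidneys.

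Receptor RNA was also read beside that of leukocyte markers. *Ptprc*, which encodes the pan-leukocyte protein CD45, lay between 0.307 and 0.426 FPKM in all sham kidneys. After UUO it was listed at 3.60, 2.91, 2.94, 4.76 and 5.68 FPKM in KDM6A Ctrl and at 5.14, 4.26, 5.35, 6.28 and 5.37 FPKM in KDM6A TubKO mice. The genotypes overlapped, and the log2 fold change was 0.36 (standard error 0.12, limma adjusted p = 0.0762). *Adgre1*, which encodes the macrophage protein F4/80, differed by 0.22 (limma adjusted p = 0.458) and *Csf1r*, the receptor of the macrophage growth factor CSF1, by 0.25 (limma adjusted p = 0.294).

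The 12 monocyte and macrophage markers all rose with UUO in both genotypes, beside 56.7% and 57.9% of all genes. Their median log2 fold changes were 2.94 and 3.17. Between genotypes after UUO, 3 of the 12 were called higher (2.58% of all genes), namely *Itgam* (log2 fold change 0.66), *Mrc1* (0.57) and *Cd86* (0.38). None was called lower (3.07% of all genes), but the log2 fold changes of the list ran from -0.72 to 0.66, with a median of 0.23. *Lyz2* went the other way, with means of 303 FPKM in KDM6A Ctrl UUO and 189 FPKM in KDM6A TubKO UUO kidneys. The summed level of the 12 markers lay between 382 and 826 FPKM in KDM6A Ctrl UUO and between 401 and 664 FPKM in KDM6A TubKO UUO kidneys. With log2 *Ptprc* as a covariate, the genotype difference after UUO was 0.53 for *Ccr2* (limma adjusted p = 0.259) and 0.74 for *Cx3cr1* (limma adjusted p = 0.224), and neither was called. The log2 ratio of *Ccr2* to *Ptprc* after UUO, from FPKM + 1, averaged 1.39 ± 0.24 in KDM6A Ctrl and 1.87 ± 0.21 in KDM6A TubKO kidneys (SD, n = 5), that of *Cx3cr1* averaged 0.54 ± 0.48 and 1.11 ± 0.29, and that of *Ccr1* averaged 0.51 ± 0.54 and 0.17 ± 0.44. The ranges of the genotypes overlapped for all 3 receptors. Urothelium markers also moved with genotype, with 5 of 8 called lower in KDM6A TubKO UUO kidneys (3.07% of all genes) and none higher. Their summed levels overlapped, at 40.2 to 856 FPKM in KDM6A Ctrl and 16.7 to 113 FPKM in KDM6A TubKO kidneys, and 0 of the 8 were lower without overlap. T and NK cell markers summed to 6.87 to 23.7 FPKM and 14.0 to 19.0 FPKM, and 0 of 7 were called. Of the 7, 1 had an unadjusted p under 0.05, beside 24.6% of all genes. Neutrophil markers (4 genes) summed to 9.58 to 103 FPKM and 16.9 to 48.3 FPKM, and 0 were called (0 at an unadjusted p under 0.05), and for both lists the Ballgown-like F-test called 0. The part of cell composition in the receptor differences was not tested beyond these values.

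**Figure D4:**
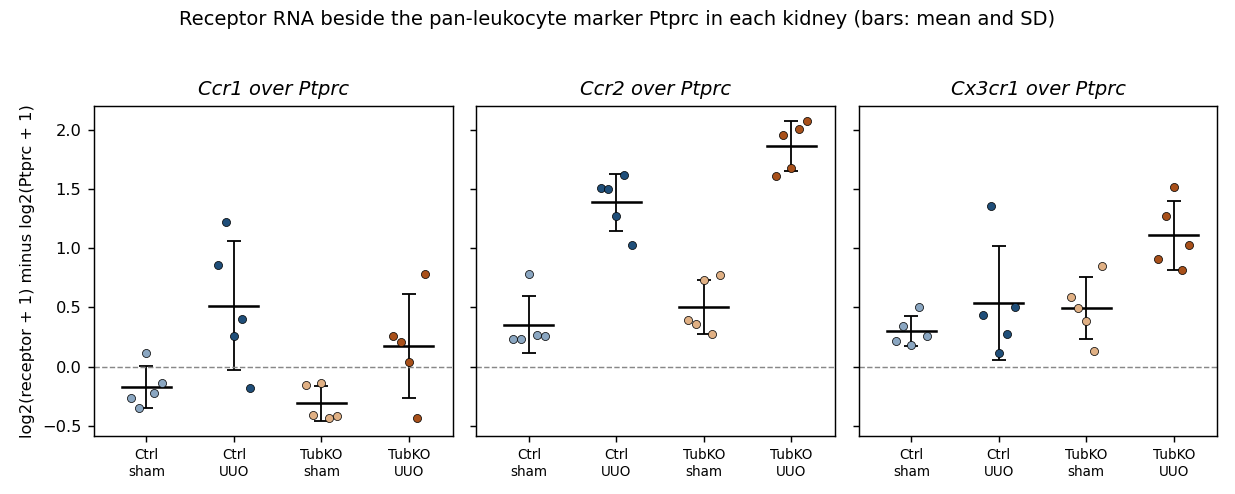
Log2 ratio of each receptor to the pan-leukocyte marker *Ptprc* within a kidney, from log2(FPKM + 1), with 1 point per kidney and bars for the mean and SD of 5 mice per group. After UUO *Ccr2* over *Ptprc* averages 1.39 in KDM6A Ctrl and 1.87 in KDM6A TubKO kidneys, with ranges that meet at 1.62 and 1.61.

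Other genes of the chemokine system were read from lists. Of 13 other CC chemokines, 10 rose and 1 fell with UUO in KDM6A Ctrl mice (median log2 fold change 1.21), and 11 rose in KDM6A TubKO mice (median 1.15). *Ccl9*, *Ccl6* and *Ccl17* led in both genotypes, at 3.77, 3.68 and 3.28 in KDM6A Ctrl mice. All 8 other measured receptors rose in both genotypes (medians 1.00 and 1.12). Among them were *Cxcr4*, the receptor of CXCL12 (1.43 and 1.96), and *Cxcr6*, the receptor of CXCL16 (1.38 and 1.43). With UUO, 56.7% (KDM6A Ctrl) and 57.9% (KDM6A TubKO) of all genes rose at adjusted p, and 15.1% fell in KDM6A Ctrl mice. No gene of either list was called between genotypes after UUO in limma, with 4 and 2 at an unadjusted p under 0.05 and 0 by the Ballgown-like F-test. Of all genes, 24.6% had an unadjusted p under 0.05 in that comparison. *Ackr3*, a scavenging receptor of CXCL12, rose by 1.04 (KDM6A Ctrl) and by 0.44 (KDM6A TubKO) on the log2 scale. *Ackr1*, *Ackr2* and *Ccr8* were absent from the 13842 genes, so they have no values here.

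Of 20 genes through which chemokine receptors signal in leukocytes, 19 rose in each genotype, beside 56.7% and 57.9% of all genes. The medians were 1.24 and 1.37, and the arrestin gene *Arrb2* was among the leading genes in both (2.41 and 2.72). None of the 20 was called between genotypes after UUO in limma or by the Ballgown-like F-test. An unadjusted p under 0.05 in limma was reached by 8 of them, beside 24.6% of all genes. All 3 proteases that release CX3CL1 from the membrane rose, and *Ctss* (cathepsin S) led, at 4.04 (KDM6A Ctrl) and 4.33 (KDM6A TubKO). *Adam10* was lower in KDM6A TubKO than in KDM6A Ctrl sham kidneys (log2 fold change -0.50, limma adjusted p = 0.0205). Among 9 measured inducers and growth factors of this system, 9 rose in each genotype, led by *Il1b*, *Csf1* and *Il34*, and 0 were called between genotypes after UUO in limma (1 at an unadjusted p under 0.05, 0 by the Ballgown-like F-test).

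At the level of transcripts, *Ccr2* was listed with 4, *Cx3cr1* with 3, *Cx3cl1* with 2 and each other member with 1. *Ccr2-203* lay between 1.78 and 8.34 FPKM in KDM6A Ctrl UUO kidneys and between 9.68 and 13.1 FPKM in KDM6A TubKO UUO kidneys, without overlap. *Ccr2-202*, the most abundant by mean after UUO in both genotypes, overlapped, at 3.40 to 16.9 and 12.0 to 21.4 FPKM. *Cx3cr1-201* lay between 0.397 and 10.6 FPKM and between 7.12 and 20.1 FPKM. In KDM6A Ctrl UUO and KDM6A TubKO UUO kidneys the means of *Cx3cr1-202* were 0.896 and 2.01 FPKM. Those of *Cx3cr1-203* went the other way, at 2.06 and 1.18 FPKM. *Cx3cl1-201* held nearly all RNA of *Cx3cl1*. Values per transcript depend on how the authors' assembler split the reads, and no test was made of them.

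The genes most like each member over the 20 kidneys were found by the root mean square difference of z-scored log2(FPKM + 1). *Ccr2* was nearest to *Casp4* and *Mrc1* (both 0.12 SD), and *Ccl8* to *Mrc1* (0.11 SD) and *Socs3* (0.12 SD). *Ccl2* was nearest to *Cxcl5* (0.16 SD) and *Akr1b8* (0.18 SD), *Ccl7* to *Sox9* (0.10 SD) and *Rap2b* (0.13 SD), and *Ccl12* to *Adam12* and *Samd5* (both 0.15 SD). *Ccl5* was nearest to *Ager* and *Tnfaip8l2* (both 0.18 SD), *Ccr1* to *Rhou* (0.13 SD) and *Vasp* (0.15 SD), and *Cx3cr1* to *5430427O19Rik* (0.18 SD) and *Pid1* (0.20 SD). *Cx3cl1* had the most distant neighbours, *Ncbp2* (0.32 SD) and *Tmub2* (0.37 SD). All 20 points share the step from sham to UUO, and the measure is a description of likeness only.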

How the data were processed

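RNA from the left kidneys of 20 male mice was sequenced, 5 per group. The values deposited by the authors are FPKM per gene and per transcript. Per the labels and the methods, cutadapt removed adaptors, HISAT2 placed the reads on GRCm38, StringTie estimated transcripts and Ballgown gave the FPKM, with versions not given in the sources used here. FPKM hold no counts, so depth and counting error are unknown; 756 of 13842 genes were listed at 0 in at least 1 kidney, including 1 of 2231 genes with a median of at least 20 FPKM.

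Values were taken as log2(FPKM + 1), and genes needed a mean of at least 0.5 FPKM in a group, which removed 0. limma 3.58.1 in R 4.3.3 fitted 1 mean per group over all 20 kidneys (eBayes with trend), with Benjamini-Hochberg adjustment over all genes, after being tested on simulated data. Python 3.11.15, pandas 2.3.3, numpy 2.4.6 and matplotlib 3.10.9 were used for descriptions. Alternatives were 11 other settings, among them a Ballgown-like F-test with a library-size covariate, and leaving out each of the 20 mice. The members and lists were chosen with earlier results of these data known, and *Ccr2*, *Cx3cr1* and *Ccl12* are also named by the study as changed in these samples, so their counts are not independent evidence. Beside the members, the text names up to 3 called genes per list with the largest change, fixed marker genes, and the 2 nearest genes of each member; promoters, transcripts and genes overlapping a member were added for identity. Several mice of a group share the leading digits of their identifier, with no meaning stated, and p-values measure the spread between these mice. Some genes of the lists are not reported here.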

Additional observations from a re-analysis of the deposited data

Results flagged for a closer look

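In groups of 5 kidneys, 12 extreme values among 36 sets (9 genes in 4 groups) lay farther from the rest than Dixon's 95% critical value allows, and 8 of the 12 were in KDM6A Ctrl sham mice. Chance flags about 1 in 20 sets of independent, normally spread values. The count cannot be read against that share, since 7 of the 12 came from KDM6A Ctrl sham mouse 3 and in 3 of the 12 the other 4 kidneys were all at 0, where any value above 0 stands out. KDM6A Ctrl sham mouse 3 was the highest of its group for *Ccl2* (3.46 FPKM, next 0.238), *Ccl7* (1.92, next 0.170), *Ccl8* (1.33, next 0), *Ccl12* (2.96, next 0.404), *Ccr1* (0.496, next 0.184) and *Ccr2* (1.38, next 0.637), and the lowest for *Cx3cl1* (1.42, next 10.6). The same kidney had 55.1 FPKM of *Havcr1* and 14.5 FPKM of *Lcn2*, both tubule injury genes. KDM6A Ctrl sham mouse 2 was the lowest for *Ccl5* (0.352, next 1.16). Among KDM6A TubKO sham mice, mouse 3 was the highest for *Ccl7* (0.103, next 0), mouse 1 for *Ccl8* (0.343, next 0) and mouse 5 for *Ccl12* (1.43, next 0.188). After UUO, KDM6A TubKO mouse 3 was the highest for *Cx3cr1* (17.3, next 12.0). No cause of these values was tested.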

How the results depend on the processing

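No paired analysis was possible because the labels give no replicate numbers and no animal or identifier stem is shared between groups. UUO raised 9 of 9 members in both genotypes under each alternative except the Ballgown-like F-test, which called 0 (KDM6A Ctrl) and 1 (KDM6A TubKO), and log2 *Ptprc* as a covariate, with 2 and 0. *Cx3cl1* in KDM6A TubKO mice turned to -0.68 in the Ballgown-like F-test, without a call. A near form of the library covariate of that test, with values of 0 kept in, was 17526 to 18693 in sham and 22354 to 23797 in UUO kidneys. The test itself left values of 0 out of its covariate. Between genotypes in sham, the 1 member past the study threshold became 0 with only the compared groups, the Ballgown-like F-test, the number series or urothelium markers as covariate, and ranged from 0 to 1 when a mouse was left out (0 without KDM6A Ctrl sham mouse 3 or KDM6A TubKO sham mouse 2). After UUO, the 2 calls became 1 at a pseudocount of 0.1 and 0 with only the compared groups, the Ballgown-like F-test, urothelium markers or *Ptprc*. The 4 members higher at the study threshold became 2 at a pseudocount of 0.1, with array weights or urothelium markers and 1 with *Ptprc*, and ranged from 2 to 4 when a mouse was left out (2 without KDM6A Ctrl UUO mouse 2 or KDM6A TubKO UUO mouse 5). The 1 lower became 0 at a pseudocount of 0.1, with array weights, urothelium markers or *Ptprc*, and ranged from 0 to 1 when a mouse was left out (0 without KDM6A Ctrl UUO mouse 1 or 2 or KDM6A TubKO UUO mouse 2, 3, 4 or 5). The ligand excess in sham kidneys was 0.0191 (KDM6A Ctrl) and -0.166 (KDM6A TubKO) at a pseudocount of 0.1. Quantile normalization shifted the median of all genes by -0.40 and -0.43 in the UUO comparisons and upper quartile rescaling by -0.21 in both. The interaction was not run with only the compared groups. Other causes were not tested.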
